A study of Homo sapiens with 6 samples.

Results

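Aminoacyl-tRNA synthetases are the enzymes that join each amino acid to its tRNA, and 37 genes were followed here: 19 cytosolic synthetase genes, 16 mitochondrial synthetase genes whose symbols end in 2, and the scaffold genes AIMP1 and AIMP2. The members were chosen by name, from 19775 genes with a probe set of their own on the array. A gene was represented by the probe set that named only that gene and had the highest mean log2 intensity over the 6 arrays. Of the 37 genes, 33 had such a probe set, and all 33 passed the filter on low values (a log2 intensity above 4 on at least 3 of the 6 arrays). MARS1, QARS1 and TARS2 had only probe sets annotated to several symbols, AIMP2 had no annotated row, and these 4 genes have no value here.

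The samples were U937T:PLZF-RARa cells, an engineered derivative of the human monocytic line U937 in which the leukaemia fusion protein PLZF-RARA is made once tetracycline is taken away. The control group, 3 samples, kept tetracycline and so was not induced. Its labels also give 48 h. The other group, 3 samples, was washed and cultured without tetracycline for 48 h. All cells grew in medium with serum, puromycin and G418. The groups also differ in tetracycline and in washing, and since no line without the transgene was analysed here, these cannot be told apart from the fusion protein.

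Each synthetase uses ATP to activate its amino acid and then passes it to the matching tRNA, so these enzymes set the supply of building blocks for the ribosome. Mitochondria translate their own genome and mostly use a separate set of synthetases, which nuclear genes encode and the organelle imports; GARS1 and KARS1 supply both compartments from a single gene. Several cytosolic synthetases are held together with AIMP1 and AIMP2 in the multisynthetase complex. Many cytosolic synthetase genes are known targets of ATF4, the transcription factor of the amino acid response, and growth-promoting factors such as MYC are known to raise genes of protein synthesis.

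Of the 11 markers of the monocytic line with a probe set of their own 10 lay above the filter, and MPO did not. The summed intensity of the 11 was 55200 to 62800 on the uninduced arrays and 35600 to 36300 on the induced arrays. The markers did not move together: 7 fell, while PTPRC rose by 1.77, CD4 by 0.24 and TYROBP by 2.63. SPI1 went from a mean log2 intensity of 7.12 to 3.16, and all its induced arrays lay below the filter. Of the T and NK cell, B cell, erythroid, and epithelial and fibroblast markers, 1 of 7, 1 of 4, 1 of 3 and 2 of 8 lay above it. The summed intensity of the T and NK cell markers was 221 to 252 on the uninduced and 1310 to 1440 on the induced arrays, with NKG7 above the filter and CD3D, CD3E, CD3G, CD2, CD8A and KLRD1 below it. The B cell markers summed to 56.5 to 58.3 and 60.6 to 65.5, with MS4A1, CD79A and CD79B below the filter. CD79B had means of 2.81 in uninduced and 4.12 in induced samples. It was above a log2 of 4 on 2 of the 3 induced arrays, too few to pass the filter. For the erythroid markers the sums were 51.0 to 61.1 and 18.6 to 21.3, with HBB and ALAS2 below it. The epithelial and fibroblast markers summed to 392 to 415 and 297 to 318, with EPCAM, KRT18, KRT19, CDH1, COL1A2 and COL3A1 below it. As a measure of RNA integrity, the 3' probe set of GAPDH exceeded the 5' one by 0.481 to 0.530 on the uninduced and 0.555 to 0.619 on the induced arrays (log2), without overlap. For ACTB this difference was 1.15 to 1.31 and 1.30 to 1.50, and the groups overlapped. Uninduced replicate 3 had a 75th percentile of 6.92 on the log2 scale, against 7.11 to 7.18 on the other arrays. The part of these markers, of RNA integrity or of the cells' state in the values below was not tested, and in RNA from whole cultures fewer cells that express a gene and less RNA per cell cannot be told apart. Whether the numbered replicates came from separate cultures is not stated in the labels, so the p-values reflect the spread among these 6 samples, which may be technical.

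Where a promoter sequence was listed (32 of the 37 genes, RefSeq, GRCh38.p14, from 250 bases before to 50 after the start of transcription, the first listed start where there were several), it was searched on both strands for TGATGNAA. These letters are a form of the element bound by ATF4 with a C/EBP partner. LARS1, VARS1, YARS1, AARS2 and VARS2 had no listed promoter and were not searched for any motif. A match was found in 6 of 16 cytosolic promoters (37.5%), in AARS1, CARS1, IARS1, MARS1, NARS1 and TARS1, and in 1 of 14 mitochondrial promoters (7.14%), that of YARS2. It was found in 3.67% of all 27305 promoters and in 1.69% of the 8159 promoters of genes tested on these arrays. In 5 of the 16 cytosolic promoters (31.2%) the match began within 20 bases of the start, against 0.282% among the tested genes. The 5 were those of CARS1, IARS1, MARS1, NARS1 and TARS1. The sequences below are from the measured cytosolic genes with a match, AARS1 included. MARS1, which has no value here, and YARS2, whose site differs and reads TGATGGAA, are not shown. Each sequence is 30 bases on the strand of its gene, with the match in capitals.

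AARS1 (chr16:70289675-70289704, minus strand): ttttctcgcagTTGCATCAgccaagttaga

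CARS1 (chr11:3057407-3057436, minus strand): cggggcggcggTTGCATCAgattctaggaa

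IARS1 (chr9:92293692-92293721, minus strand): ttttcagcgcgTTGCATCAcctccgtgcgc

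TARS1 (chr5:33440956-33440985, plus strand): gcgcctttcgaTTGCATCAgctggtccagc

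NARS1 (chr18:57621804-57621833, minus strand): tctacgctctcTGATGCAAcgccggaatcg

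The same 8 letters occur in all 5, read from either strand: they lie on the strand opposite to the gene in AARS1, CARS1, IARS1 and TARS1 and on the gene's own strand in NARS1. The match begins at position -187 in AARS1, -2 in CARS1, -13 in IARS1, 3 in TARS1 and 15 in NARS1, counted from 1 at the start of transcription. All 5 of these genes fell on induction, as given below. So did 16 of the 17 measured cytosolic synthetases, and 30.7% of all tested genes were lower. A match in a promoter is a description of letters and not evidence that a factor binds there.

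The E-box CACGTG, the sequence bound by MYC and related factors, was found in 3 of 14 mitochondrial promoters (21.4%) and in 1 of 16 cytosolic promoters (6.25%), that of IARS1, against 7.43% of all promoters and 10.9% of those of tested genes. The 3 mitochondrial sites are shown because MARS2 and EARS2 were among the genes that fell most.

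MARS2 (chr2:197705346-197705375, plus strand): atgcgcctctcaCACGTGctgtcagaacgc

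EARS2 (chr16:23557348-23557377, minus strand): cagggagaagccCACGTGtgctattccatc

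CARS2 (chr13:110706501-110706530, minus strand): tgctgggatgcaCACGTGcttcgctaacag

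The E-box begins 11 bases before the start in MARS2, 15 before it in EARS2 and 3 before it in CARS2. NARS2, which fell by -1.74, has no E-box in the window searched.

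Transcripts of the cytosolic synthetases were lower in induced cells in 16 of 17 measured genes, with a median log2 change of -0.84 (limma on all probe sets, Benjamini-Hochberg adjusted p under 0.05). Over all 9834 genes tested, 66.5% passed the same rule, 30.7% as lower and 35.8% as higher, and the median change was 0.02. By their representative probe sets VARS1, WARS1, EPRS1 and FARSB fell at least 2-fold, and HARS1 did not pass the test. None of the 17 rose.

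VARS1, which charges valine, had a log2 intensity of 11.22, 11.14 and 10.93 in the uninduced samples and 9.24, 9.13 and 9.06 in the induced samples. The groups lay far apart, and VARS1 fell 3.89-fold, a change of -1.96 ± 0.09 (SE; adjusted p = 5.24e-06). Its other tested probe set, which lay below the filter on 2 of the 3 induced arrays, changed by -1.30 ± 0.38 (SE; adjusted p = 0.0202).

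WARS1, the tryptophan enzyme and a known interferon-gamma target, lay at 10.05, 10.06 and 9.93 in uninduced and 8.39, 8.45 and 8.43 in induced samples. It fell 3.01-fold, by -1.59 ± 0.06 (SE; adjusted p = 2.88e-06), and its other probe set fell by -1.93. IRF1 and TAP1, other interferon-gamma targets, rose, from 5.95 ± 0.12 to 7.74 ± 0.23 and from 7.03 ± 0.04 to 8.46 ± 0.09 (SD, n = 3 each; adjusted p = 2.84e-05 and 5.71e-06). GBP1, GBP2, IDO1 and CXCL10 stayed below the filter in both groups.

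EPRS1 is a fused enzyme that charges both glutamate and proline. Its log2 intensity was 11.69, 11.74 and 11.65 in uninduced and 10.42, 10.64 and 10.62 in induced samples. It fell 2.20-fold (-1.13 ± 0.08, SE; adjusted p = 2.35e-05). The other tested probe sets of EPRS1 fell by -1.29 and -1.84, so the size depended on the probe set.

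The phenylalanine enzyme of the cytosol is built from the products of FARSA and FARSB. FARSB was measured at 11.60, 11.52 and 11.52 in uninduced and at 10.49, 10.61 and 10.45 in induced samples, a 2.04-fold fall (-1.03 ± 0.07, SE; adjusted p = 2.08e-05). FARSA fell from 10.49 ± 0.09 to 9.62 ± 0.04 (SD, n = 3 each), or 1.83-fold. The genes of both subunits fell, by -1.03 and -0.88.

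YARS1, the tyrosine enzyme, went from 12.87, 12.80 and 12.71 to 11.81, 11.87 and 11.76, which is 1.97-fold lower (-0.98 ± 0.07, SE; adjusted p = 2.56e-05). LARS1, the leucine enzyme, fell 1.97-fold, from 12.66 ± 0.06 to 11.68 ± 0.06 (SD, n = 3 each). IARS1 for isoleucine fell 1.86-fold, TARS1 for threonine 1.79-fold and GARS1 for glycine 1.69-fold. The changes of these 5 genes ran from -0.76 to -0.98, and none of their groups overlapped. The groups did not overlap in 74.4% of all tested genes either.

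Smaller falls were measured for NARS1 (asparagine, 1.55-fold), RARS1 (arginine, 1.51-fold), CARS1 (cysteine, 1.46-fold), AARS1 (alanine, 1.45-fold), SARS1 (serine, 1.36-fold) and KARS1 (lysine, 1.27-fold). The other tested probe sets of CARS1 fell by -0.56 and -1.17. KARS1 fell from 13.88 ± 0.09 to 13.54 ± 0.09 (SD, n = 3 each; adjusted p = 0.00669), and its other probe set fell by -0.59. HARS1, the histidine enzyme, lay at 10.79, 10.74 and 10.61 in uninduced and 10.55, 10.55 and 10.60 in induced samples. The groups did not overlap, but its change of -0.15 (95% interval -0.31 to 0.02) did not pass the test (adjusted p = 0.105). HARS1 passed after quantile normalization (-0.17, adjusted p = 0.017) and without uninduced replicate 3 (-0.20, adjusted p = 0.0231).

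**Figure D1:**
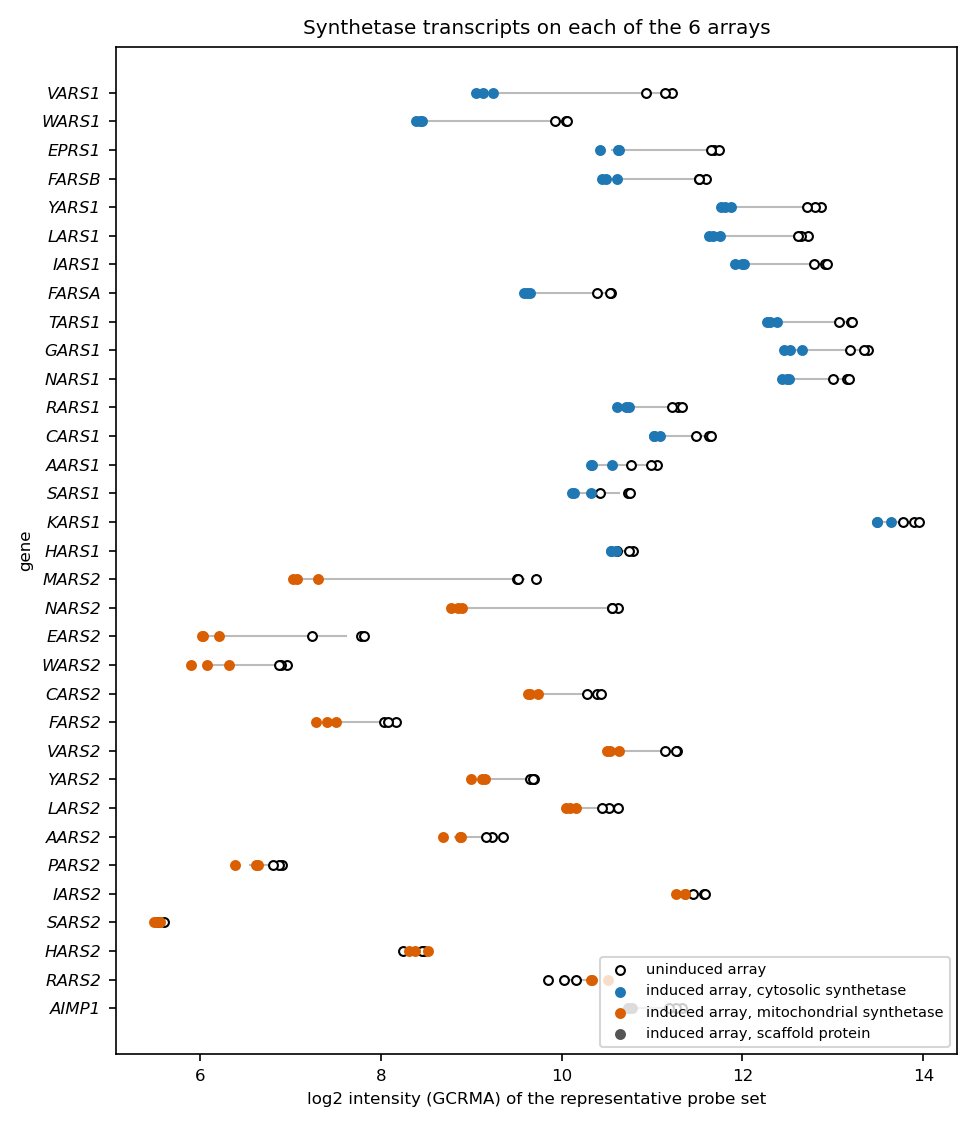
Log2 intensity (horizontal axis) of the representative probe set of each of the 33 measured genes (rows), with open circles for the 3 uninduced arrays and filled circles for the 3 induced arrays; grey lines join the group means. Filled circles lie to the left of open circles for most genes, with MARS2 and VARS1 the most separated and RARS2 the gene whose induced arrays lie to the right.

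Among the mitochondrial synthetases 12 of 15 measured genes fell, 1 rose and 2 did not pass the test. Of all tested genes, 30.7% were lower and 35.8% higher. The median log2 change of the mitochondrial synthetases was -0.59. Their changes were spread more widely than those of the cytosolic genes, from -2.44 to 0.38 against -1.96 to -0.15. MARS2, NARS2 and EARS2 formed the lower end and RARS2 the upper end.

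MARS2 charges the mitochondrial methionine tRNA. It lay at 9.72, 9.51 and 9.51 in uninduced samples and at 7.31, 7.08 and 7.03 in induced samples. This fall of 5.43-fold (-2.44 ± 0.10, SE; adjusted p = 2.90e-06) was the largest among the 33 measured genes by their representative probe sets. The cytosolic methionine gene MARS1 is one of those without a probe set of its own, so this amino acid has no pair to compare.

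NARS2, the mitochondrial asparagine enzyme, went from 10.56, 10.62 and 10.56 to 8.86, 8.90 and 8.78. It fell 3.33-fold (-1.74 ± 0.06, SE; adjusted p = 1.81e-06). The spread within each group was small, with SDs of 0.03 and 0.06.

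EARS2 charges glutamate to the mitochondrial glutamate tRNA and also to the glutamine tRNA, where an amidotransferase then converts it to glutamine. Its representative probe set lay at 7.78, 7.82 and 7.24 in uninduced and 6.02, 6.21 and 6.03 in induced samples, a 2.88-fold fall (-1.53 ± 0.16, SE; adjusted p = 1.70e-04). A second probe set fell by -2.30 ± 0.11 (SE). Another lay at 7.23, 6.92 and 6.54 in uninduced and 3.38, 3.09 and 3.08 in induced samples. This probe set was below the filter on all 3 induced arrays and at least 7.43-fold lower, taken against the filter value. All 3 tested EARS2 probe sets fell, and the size of the fall depended on the probe set.

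WARS2 fell 1.75-fold, from 6.91 ± 0.05 to 6.10 ± 0.21 (SD, n = 3 each). CARS2 fell 1.62-fold, FARS2 1.62-fold, VARS2 1.61-fold and YARS2 1.50-fold. LARS2 fell 1.35-fold, AARS2 1.35-fold and PARS2 1.24-fold. These enzymes serve tryptophan, cysteine, phenylalanine, valine, tyrosine, leucine, alanine and proline in that order. IARS2 for isoleucine fell by the smallest called amount, from 11.54 ± 0.08 to 11.34 ± 0.06 (-0.20, adjusted p = 0.0381). The call for IARS2 was lost when any single array other than uninduced replicate 3 was left out (changes of -0.17 to -0.22, adjusted p from 0.0616 to 0.118), and in a fit with a replicate block (adjusted p = 0.0704). PARS2 missed the threshold without uninduced replicate 1 (-0.29, adjusted p = 0.0504).

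RARS2, the mitochondrial arginine enzyme, was the 1 member that rose. It lay at 10.16, 10.03 and 9.85 in uninduced samples and at 10.51, 10.34 and 10.33 in induced samples, without overlap. The rise was 1.30-fold (0.38 ± 0.10, SE; adjusted p = 0.0124), and its second tested probe set rose by 0.39 (adjusted p = 0.0048). RARS2 stayed higher under all 16 alternatives run, from 0.30 to 0.46, with adjusted p from 0.00278 to 0.0436.

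SARS2 lay at 5.54, 5.61 and 5.54 in uninduced and 5.56, 5.49 and 5.53 in induced samples, and the groups overlapped. Its change was -0.04 (95% interval -0.17 to 0.10), while after quantile normalization it was -0.25 and passed (adjusted p = 0.00627). HARS2, at 8.48, 8.46 and 8.25 in uninduced and 8.38, 8.52 and 8.31 in induced samples, also overlapped and changed by 0.01 (95% interval -0.21 to 0.23; adjusted p = 0.935).

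**Figure D2:**
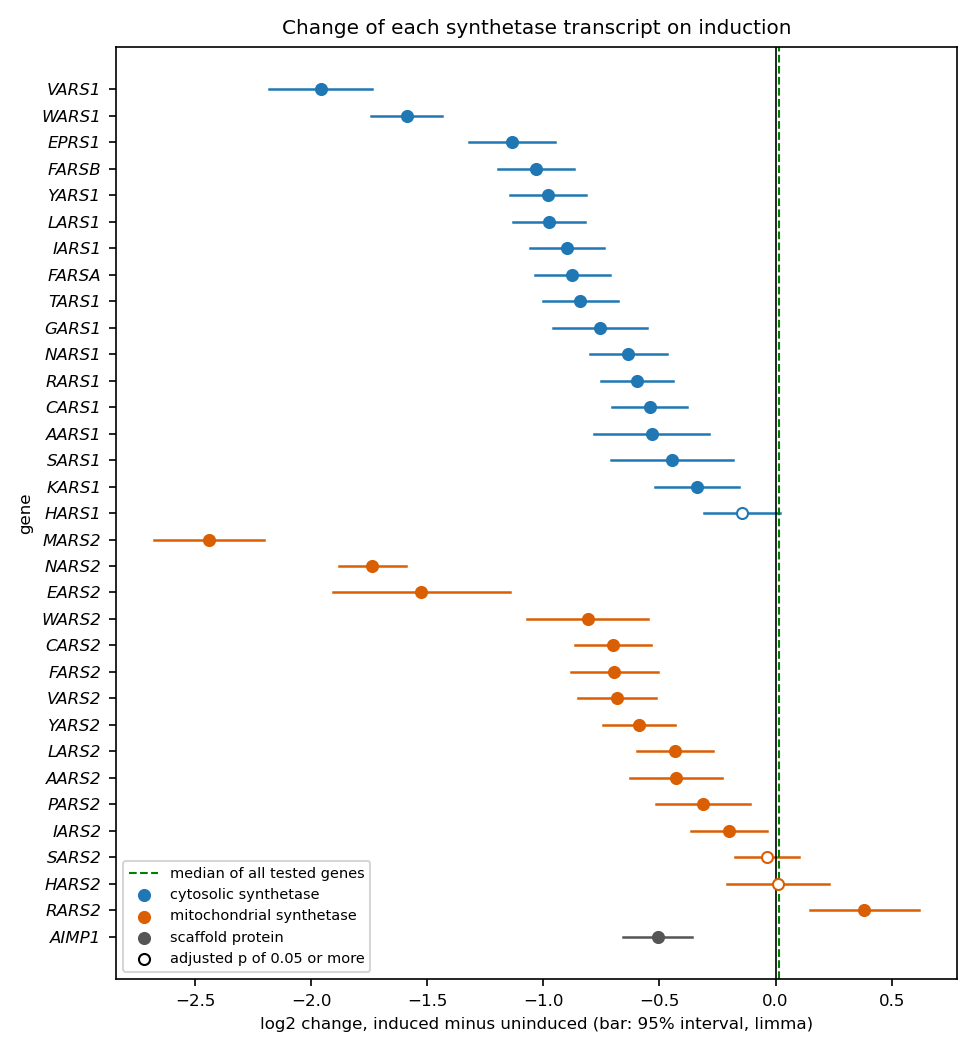
Log2 change of each measured gene, induced minus uninduced (horizontal axis), with 95% intervals from limma; filled points passed an adjusted p of 0.05, open points did not, and the dashed line is the median over all tested genes at 0.02. Of 33 genes 29 lie to the left of 0 and passed, RARS2 lies to the right and passed, and HARS1, HARS2 and SARS2 are open.

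AIMP1, a scaffold of the multisynthetase complex, was measured at 11.33, 11.26 and 11.19 in uninduced and 10.78, 10.73 and 10.75 in induced samples. It fell 1.42-fold (-0.51 ± 0.06, SE; adjusted p = 3.83e-04). Its other probe sets fell by -1.06 and -0.29, so here too the size depended on the probe set. With EPRS1, LARS1, IARS1, RARS1 and KARS1, all 6 measured members of the complex fell, with a median change of -0.75. The share lower over all tested genes was 30.7%. The 12 synthetases of the cytosol outside the complex that are shown above include VARS1 and WARS1. By representative probe sets, these fell more than any of the 6.

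Over all 33 measured genes, 29 fell, 1 rose and 3 did not pass the test, and 7 fell at least 2-fold, against 8.83% of all tested genes. The groups did not overlap in 31 of 33, against 74.4% of all tested genes. Counted by probe set, 49 of the 54 tested probe sets of these genes were lower and 2 were higher, where 62.5% of all 20552 tested probe sets passed, 27.9% as lower and 34.6% as higher. In each of the 15 genes with over 1 tested probe set, all of them gave the same call. The share of all genes with such agreement was not taken.

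**Figure D3:**
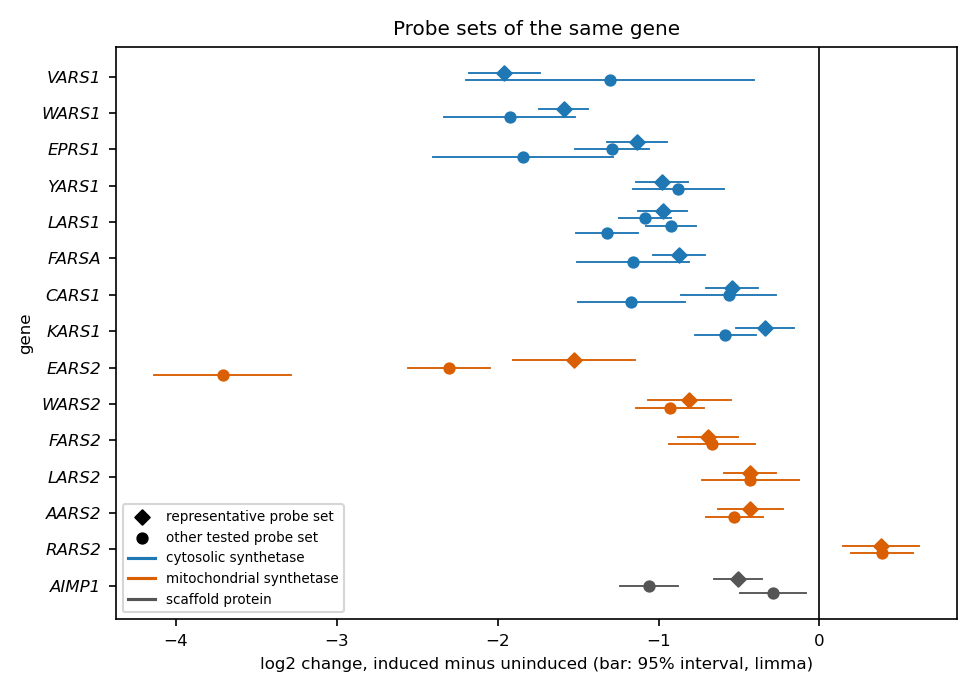
Log2 change (horizontal axis) of every tested probe set of the 15 genes with over 1, with 95% intervals from limma; diamonds mark the representative probe set, circles the others. All probe sets of a gene lie on the same side of 0, while those of EARS2 lie at -1.53, at -2.30 and at the measured value of a probe set that ended below the filter, for which only the bound of 7.43-fold holds, and those of AIMP1 from -0.29 to -1.06.

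Synthetases fall into a pair of structural classes with unrelated catalytic folds. Class I enzymes fell in 15 of 16 measured genes and rose in 1, with a median change of -0.75. Class II enzymes fell in 12 of 15, with a median of -0.53, and the 3 that did not pass the test, HARS1, HARS2 and SARS2, are all of class II. EPRS1 holds a domain of each class and was left out of both counts. The share lower among all tested genes was 30.7%, and the difference between the classes was not tested.

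Cytosolic synthetases commonly listed as targets of the amino acid response fell in 12 of 12 measured cases, with a median of -0.87. Over all tested genes 30.7% were lower. Of the 5 measured cytosolic genes outside that list, FARSA, FARSB, KARS1 and RARS1 fell and HARS1 did not pass, with a median of -0.60. The 5 measured cytosolic genes whose promoters hold TGATGNAA changed by -0.53 (AARS1), -0.54 (CARS1), -0.90 (IARS1), -0.63 (NARS1) and -0.84 (TARS1). EPRS1, WARS1 and FARSB fell further and have no such match in the window searched. VARS1, LARS1 and YARS1 also fell further, but had no listed promoter to search. Over all tested genes with a listed promoter, 39.9% of the 138 with a match were lower and 30.7% of the 8021 without one. For the E-box, 40.1% of 887 genes with a match were lower and 29.8% of 7272 without one.

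For 14 amino acids both a cytosolic and a mitochondrial gene were measured, with EPRS1 serving in the glutamate and the proline pair. Both genes fell in 11 pairs. The log2 ratio of the cytosolic to the mitochondrial probe set was taken within each array, so that a shift of the whole array cancels, and its change between groups was described without a test. The ratio fell without overlap of the groups in 9 pairs, rose without overlap in 2, and overlapped in 3. For single genes, the groups did not overlap in 74.4% of all tested genes. No such share was taken for ratios of other gene pairs. The 14 ratios rest on 1 probe set per gene. With the mean over all tested probe sets of a gene, an alternative chosen after seeing the data, the counts were again 9, 2 and 3, with glutamate in the place of cysteine among the pairs whose ratio rose.

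Relative to the uninduced mean, the ratio of the valine pair was 0.07, 0.00 and -0.07 in uninduced and -1.13, -1.37 and -1.34 in induced samples, since VARS1 fell by -1.96 and VARS2 by -0.68. By the mean over probe sets this ratio changed by -0.95. In the arginine pair the genes went opposite ways. RARS1 fell from 11.29, 11.33 and 11.22 to 10.71, 10.74 and 10.61 while RARS2 rose, and the ratio changed by -0.98. In the serine pair SARS1 fell from 10.73, 10.76 and 10.42 to 10.12, 10.32 and 10.14, SARS2 did not pass the test, and the ratio changed by -0.41. The SARS2 probe set was dim, with means of 5.56 and 5.53, and GCRMA compresses changes of low probe sets. After quantile normalization both genes passed, SARS1 at -0.48 and SARS2 at -0.25.

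The ratio also fell in the proline (-0.82), tryptophan (-0.78), isoleucine (-0.70), leucine (-0.54), tyrosine (-0.39) and phenylalanine (-0.18, with FARSA) pairs. In the asparagine pair NARS1 fell by -0.63 and NARS2 by -1.74, and the ratio rose to 1.12, 1.06 and 1.12 above the uninduced mean in the 3 induced samples. The cysteine ratio rose by 0.16, and the alanine, glutamate and histidine ratios overlapped between groups. By the mean over probe sets the cysteine ratio changed by -0.06 with overlap, the glutamate ratio rose by 1.09 without overlap, and the phenylalanine ratio changed by -0.34.

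**Figure D4:**
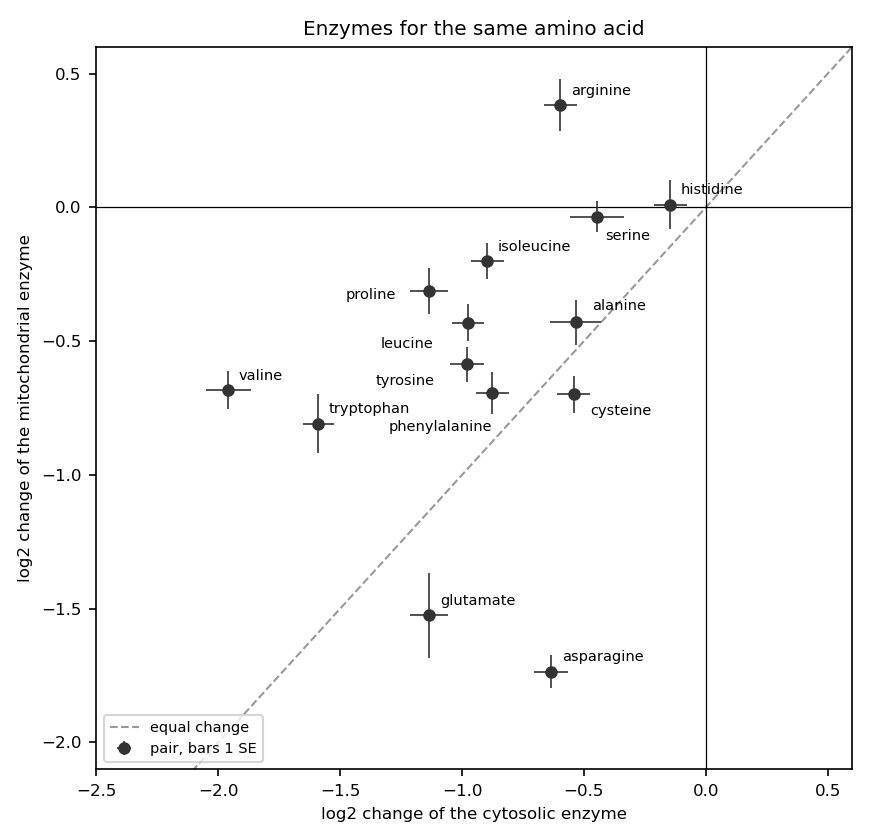
Log2 change of the cytosolic enzyme (horizontal axis) against that of the mitochondrial enzyme (vertical axis) for 14 amino acids, with bars of 1 SE and a dashed line of equal change. Most points lie above the line, where the cytosolic gene fell more; asparagine lies far below it at -0.63 and -1.74, and arginine lies above the horizontal zero line because RARS2 rose.

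HARS1 and HARS2 are neighbours that face away from each other, and their start sites on chromosome 5 are 85 bases apart. The 84 bases between them are shown because the histidine pair is the only one of the 14 in which neither gene passed the test. The sequence is given on the HARS2 strand, with matches to the ETS factor motif CCGGAAG on either strand in capitals.

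HARS1-HARS2 (chr5:140691371-140691454, plus strand, GRCh38.p14): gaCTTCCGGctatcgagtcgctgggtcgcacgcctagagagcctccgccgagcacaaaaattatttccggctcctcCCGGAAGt

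The motif occurs 2 times in this stretch. It was found in 43.8% of the members' promoters, 10.7% of all promoters and 21.5% of the promoters of tested genes. HARS1 and HARS2 are related in sequence, and whether either probe set also binds the other transcript was not analysed here.

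Of the 32 genes with a promoter sequence, 12 had a neighbour starting within 1000 bases on the opposite strand, and the neighbour did not always move with the synthetase. TERF2IP, a telomere protein whose start lies 108 bases from that of KARS1, rose from 10.27 to 11.29 (1.03 ± 0.08, SE; adjusted p = 3.33e-05) while KARS1 fell. ORC3, of the origin recognition complex, lies 148 bases from RARS2 and fell by -0.34 ± 0.07 (SE; adjusted p = 0.00408) while RARS2 rose. LYRM4, a partner in iron-sulphur cluster assembly 57 bases from FARS2, fell with it, by -1.26 ± 0.10 (SE; adjusted p = 3.78e-05). MRPS12, a mitochondrial ribosomal protein 181 bases from SARS2, fell by -0.34 ± 0.08 (SE; adjusted p = 0.00944), and SARS2 did not pass the test. TBCK, beside AIMP1, fell with it, by -0.27 (limma adjusted p = 0.0261). UBFD1, beside EARS2, changed by -0.17 and did not pass (limma adjusted p = 0.147), while EARS2 fell. HARS1 and HARS2 are each other's neighbour. The neighbours of FARSB, TARS1, WARS1 and AIMP2 had no tested value here.

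Most measured genes of the amino acid response were lower too. Of 25 tested genes in this list 23 fell, SLC38A2 rose and EIF2AK4, the kinase that senses uncharged tRNA, did not pass the test (-0.09, adjusted p = 0.314). The median was -0.79, while of all tested genes 30.7% were lower and 35.8% higher. ATF4 itself fell 1.64-fold, from 12.95 ± 0.08 to 12.23 ± 0.09 (SD, n = 3 each; adjusted p = 1.67e-04). The 4 largest changes were those of CTH, a cystathionine lyase (5.76-fold lower), CHAC1, a glutathione-degrading enzyme (at least 3.03-fold lower), the growth inhibitor DDIT4 (4.35-fold lower) and the transcription factor CEBPB (3.36-fold lower). Asparagine synthetase, ASNS, fell 2.69-fold. SLC38A2, an amino acid transporter, rose 1.46-fold by a probe set with the suffix _x_at. With _x_at and _s_at probe sets dropped, 0 genes of this list were higher and 14 lower. In that setting 7309 genes were tested in all, of which 2187 were lower. MYC fell from 12.86 ± 0.07 to 9.35 ± 0.04 (SD, n = 3 each), or 11.4-fold.

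Among the proteins that deliver charged tRNA and the enzymes that work beside the synthetases, 10 of 15 tested genes fell and 1 rose. Their median was -0.65. Over all tested genes, 30.7% were lower and 35.8% higher. GATB and QRSL1, subunits of the amidotransferase that completes the glutamine tRNA charged by EARS2, fell 2.52-fold and 2.46-fold. Its other subunit gene, GATC, was at 9.38 ± 0.24 and 8.85 ± 0.54 (SD, n = 3 each) and did not pass. DTD2, which removes wrongly attached amino acids, fell 2.48-fold and TUFM, the mitochondrial elongation factor, 2.23-fold. The cytosolic elongation factor genes EEF1A1 and EEF1D changed by 0.14 and 0.04 and did not pass (adjusted p = 0.214 and 0.685). SEPSECS, which completes selenocysteine on its tRNA, rose 1.87-fold.

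In tRNA maturation and export 15 of 19 tested genes fell and 1 rose, and the median was -0.57. The shares over all tested genes were 30.7% lower and 35.8% higher. POP1, a subunit of the nuclease that trims the 5' end of tRNA, fell 3.79-fold. The export receptors XPO5 and XPOT fell 2.21-fold and 1.98-fold. POP7, another subunit of that nuclease, fell 1.74-fold, and TSEN34, of the tRNA splicing enzyme, rose 1.30-fold.

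**Figure D5:**
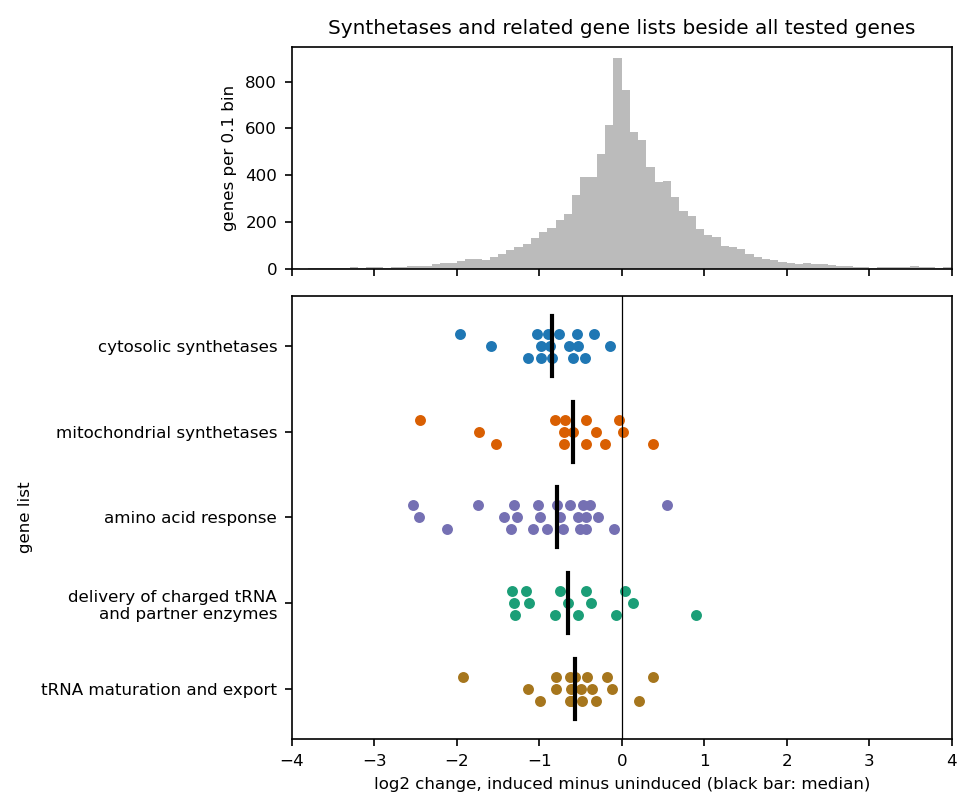
Upper panel: number of tested genes per 0.1 bin of log2 change (changes beyond 4 in size are not drawn). Lower panel: each tested gene of 5 lists on the same horizontal axis, induced minus uninduced, with the list median as a black bar at -0.84, -0.59, -0.79, -0.65 and -0.57 from top to bottom, while the median of all genes is 0.02.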

How the data were processed

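Total RNA of 6 samples was hybridised to Affymetrix HG-U133 Plus 2.0 arrays. The authors deposited 1 linear intensity per probe set and array, computed by GCRMA according to the submitters' processing notes. Its version and any later scaling: not given in the sources used here. Such intensities are relative within an array, so a change in total RNA per cell cannot be seen, and GCRMA draws dim probe sets to a common low value. Here values under 1 (6 of them) were raised to 1 and log2 was taken. Of 54675 probe sets, 62 controls were left out, and 41091 named 1 gene in GEO's platform annotation. A probe set was tested where log2 was above 4 on at least 3 arrays (20552). Groups, from the sample titles, were compared by limma 3.58.1 (R 4.3.3) (two-sided, no covariates), adjusted over all tested probe sets, threshold 0.05; the script was tested on simulated data. "Fell" and "rose" are used of genes past it. Folds were computed from the log2 differences. Intensities of different probe sets are not compared. The number of arrays limits the precision. All 37 genes are named; arrays are given singly for the 8 largest falls, for rises, for AIMP1, and for pairs with differing calls, and for HARS1 and HARS2, chosen after their values were seen. From each related list the 4 largest called changes are named, with ATF4 and MYC; ASNS, EIF2AK4, GATC and the other related genes, the motifs and the neighbours were chosen after values were seen. Members and lists were chosen with earlier results of these data known. The alternatives were 2 other filters, 3 other scalings, other eBayes settings, array weights, a replicate block, other probe set rules and leaving out each array.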

Additional observations from a re-analysis of the deposited data

How the results depend on the processing

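Of the 30 genes called among the 33, 28 had the same call under all of the 16 alternatives that gave them a value; the exceptions were IARS2 and PARS2, and none of the 30 changed direction. When probe sets with the suffix _x_at or _s_at were dropped, 11 cytosolic synthetases had a tested probe set and 10 of them were lower, with a median of -0.60; fewer genes were measured there. Counts of cytosolic falls were otherwise 16 or 17 and of mitochondrial falls 10 to 13, with 1 mitochondrial rise throughout. HARS1 also passed with array weights (-0.17) and with centring on the tested probe sets (-0.22), an alternative chosen after seeing the data, and IARS2 missed the threshold with centring on all probe sets (-0.20, limma adjusted p = 0.0721). The median of all genes ranged from -0.06 to 0.04, and centring on the tested probe sets turned the whole table from 3518 higher and 3019 lower genes to 3256 and 3627. Deviations of same-numbered samples correlated at -0.17, 4.61e-04 and 0.18, and not every sample correlated best with its own number. Pairing by replicate number was thus not seen in the values, which cannot show whether the cultures were paired. With the replicate block 3462 genes were higher and 2963 lower. Among the 33 genes IARS2 was the 1 that the block changed. Changes of low probe sets are compressed by GCRMA, and no detection calls were used. With the mean over probe sets, also chosen after seeing the data, the cytosolic to mitochondrial ratio of the cysteine pair turned from 0.16 to -0.061.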
